A study of Homo sapiens with 8 samples.

Results

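A set of 9 genes of the STRIPAK complex and its neighbours was followed in a genome-wide knockout screen of EGFR inhibitor response: PDCD10, STRN, STRN3, STRN4, STK24, STK25, MOB4, SIKE1 and CCM2. They were chosen by gene symbol as 9 of the 18052 targeted gene names in the table, with earlier results of these same libraries known. Because the choice was made on these data, the values below describe the 9 genes and are not independent evidence for any direction. All cells were Cas9-expressing PC9, an EGFR-mutant non-small cell lung cancer line, infected with the TKOv3 sgRNA library and selected with puromycin. The 4 groups were T0 (harvested at the start of treatment), untreated (DMSO, 72 h), erlotinib (10 µM, 72 h) and osimertinib (0.1 µM, 72 h), with 2 libraries in each group. Erlotinib is a reversible and osimertinib a covalent inhibitor of the EGFR kinase, and they were given at different doses. Per the methods, the untreated cells were passaged on the day after treatment began, and the harvest at 72 h took live cells. The infection was made in duplicate, but nothing says how far the cultures were kept apart. The p-values therefore rest on no more than the scatter of guides or of these libraries, depending on the test, which may be partly technical.

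STRIPAK (striatin-interacting phosphatase and kinase) is an assembly built around protein phosphatase PP2A. The striatins STRN, STRN3 and STRN4 serve as PP2A regulatory subunits, and MOB4, SLMAP and SIKE1 sit around them as adaptors. PDCD10, also called CCM3, bridges the striatins to the GCKIII kinases STK24, STK25 and STK26. The complex is known for holding the Hippo kinases MST1 and MST2 (STK4 and STK3) in a dephosphorylated state. PDCD10 also binds CCM2, and both, with KRIT1, are genes of cerebral cavernous malformation.

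Each library was a table of reads per guide, and totals ranged from 32096281 to 39200466 reads, with a median of 445 to 549 reads per guide. The 9 genes had 36 guides, of which 35 passed the filter on low reads; the guide removed was 1 of 4 for STK25, with 24 to 36 reads in every library. The change of a knockout was the L2FC, the log2 fold change between groups, taken as a gene's median over its guides after subtracting that of the non-targeting guides, which match no human gene. It is given ± the SD between guides. A gene was called lower or higher when its adjusted p, from draws of non-targeting guides over the 17761 genes tested, was under 0.05. The smallest p that the draws could give was 1e-04, and the lowest adjusted p within a comparison is therefore common to many genes. The draws weigh a gene's median against the scatter of the non-targeting guides only. Neither the spread between a gene's own guides nor that between its libraries enters this p. As a check of the screen, guides against 48 of 48 cytosolic ribosomal protein genes fell between T0 and untreated, with a median L2FC of -0.84, where 67.0% of all genes were called lower and the median of all genes was -0.17.

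Most of the 9 members were not called in drug over untreated: 7 were not called in erlotinib and 6 in osimertinib. PDCD10 knockout cells rose in erlotinib and in osimertinib relative to untreated cells, MOB4 knockout cells fell in both, and STRN4 knockout cells fell in osimertinib. In erlotinib over untreated, 1 of 9 members was higher, where 6.37% of all genes were called higher, and 1 of 9 was lower, where 4.7% were. In osimertinib over untreated, 1 of 9 was higher against 4.92% of all genes, and 2 of 9 were lower against 4.98%. The median L2FC of the 9 members was -0.05 in erlotinib and -0.08 in osimertinib, and that of all genes tested was 0.00 and 0.01. With limma on gene values per library, the same members were called in each direction, 1 higher and 1 lower in erlotinib (4.88% and 2.25% of all genes) and 1 higher and 2 lower in osimertinib (5.31% and 4.83%). Both comparisons use the same untreated libraries.

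**Figure D1:**
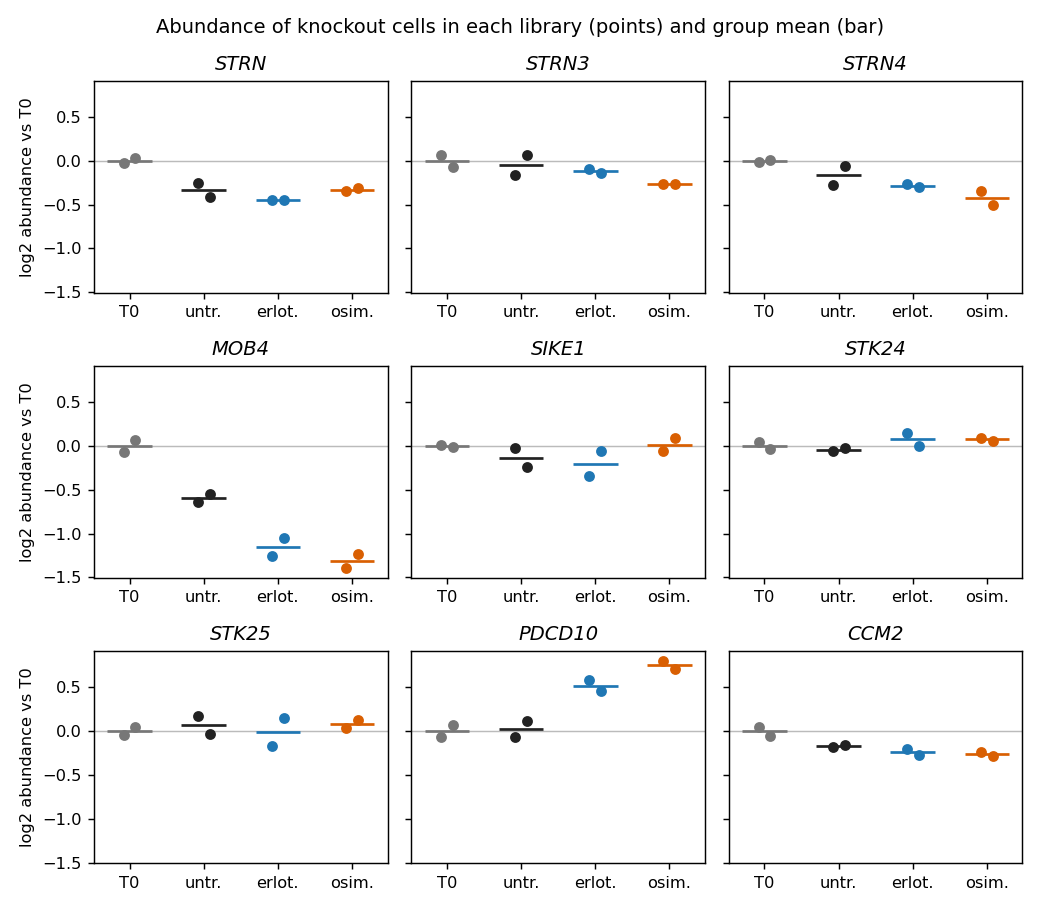
Abundance of each member's knockout cells in the 8 libraries, on the log2 scale relative to the T0 mean and to the non-targeting guides. Points are libraries and bars are group means of 2 libraries; PDCD10 sits at 0.46 or higher in all 4 drug libraries, MOB4 at -1.06 or lower in all 4, and the other 7 members stay between -0.51 and 0.18 in every library.

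Against T0, knockouts of most targeted genes lost ground to the non-targeting guides, and the members have to be read against that shift. In untreated over T0, 5 of 9 members were lower (STRN, STRN4, MOB4, SIKE1 and CCM2), where 67.0% of all genes were called lower, and no member was higher, where 0.169% were; by an unadjusted p, the draws also gave 0 members higher. In erlotinib over T0, 5 of 9 were lower against 51.3% and 1 of 9 was higher against 0.693%. In osimertinib over T0, 5 of 9 were lower against 43.1% and 1 of 9 was higher against 1.39%. The median L2FC over all genes was -0.17 in untreated, -0.14 in erlotinib and -0.14 in osimertinib, beside -0.13, -0.20 and -0.25 for the 9 members. When draws came from all targeting guides instead, 0 of 9 members were called in untreated over T0 (3.62% of all genes lower; 1 member lower by an unadjusted p), and limma called 2 of 9, STRN and MOB4 (46.3% lower). With the targeting guides as reference, MOB4 was still lower in erlotinib (2.96% of genes) and in osimertinib (3.63%), and PDCD10 was still higher in erlotinib, among 0.0394% of genes, and in osimertinib, among 0.107%.

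PDCD10, the adaptor that joins the GCKIII kinases to the striatins, was the member with the highest L2FC in each drug over untreated and over T0. On the log2 scale relative to T0, its knockout cells stood at -0.07 and 0.07 in the T0 libraries and at -0.07 and 0.12 in the untreated libraries. They stood at 0.58 and 0.46 in the erlotinib libraries and at 0.80 and 0.71 in the osimertinib libraries. The T0 and untreated values overlapped, while every osimertinib value lay above every erlotinib value, and every erlotinib value above every untreated value. Untreated cells did not pass the test against T0 (L2FC 0.00 ± 0.11, n = 4 guides, adjusted p = 0.956; limma 95% interval of the difference -0.14 to 0.17). Relative to untreated cells, PDCD10 knockouts rose by 0.53 ± 0.25 in erlotinib (1.44-fold, adjusted p = 0.0022) and by 0.72 ± 0.17 in osimertinib (1.65-fold, adjusted p = 0.00538). Counted from the top of 17761 genes, these values ranked 105 and 8. Relative to T0, they rose by 0.51 ± 0.17 in erlotinib (adjusted p = 0.000712) and by 0.79 ± 0.09 in osimertinib (adjusted p = 0.00057), ranks 4 and 3 from the top. All 4 calls were also made when any 1 library was left out, with the erlotinib over untreated value between 0.43 and 0.57 and the osimertinib over untreated value between 0.64 and 0.83.

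The 4 PDCD10 guides moved in 1 direction. Guide 4, the most abundant, had 1149 and 1183 reads in the T0 libraries and 1096 and 1447 in the untreated libraries. It had 1770 and 1870 reads in erlotinib and 2336 and 2190 in osimertinib. Guide 2, with the smallest L2FC over untreated in both drugs, went from 12.1 and 14.5 CPM (reads scaled to the library size) at T0 and 16.9 and 16.8 CPM in untreated cells to 21.6 and 17.0 CPM in erlotinib and 26.1 and 24.1 CPM in osimertinib. Relative to the non-targeting guides, the guides' L2FC over untreated spanned 0.20 to 0.73 in erlotinib and 0.58 to 0.96 in osimertinib. Tested singly with edgeR, 2 of 4 guides were called higher in erlotinib, where 1.76% of all guides were, and 4 of 4 in osimertinib, where 2.41% were. Guides 1 and 2 were the 2 that did not pass in erlotinib (L2FC 0.37 and 0.20). On its chromosome, the 20 genes nearest to PDCD10 had a median L2FC of -0.10 in erlotinib and -0.08 in osimertinib over untreated. Any part of position in the PDCD10 values was not tested.

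**Figure D2:**
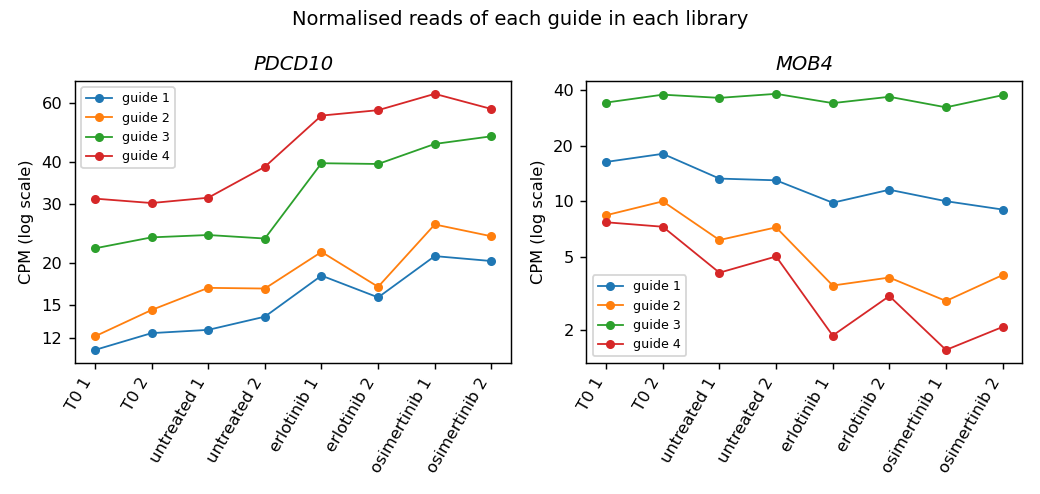
Reads scaled to library size (CPM, log scale) of the 4 guides against PDCD10 and the 4 against MOB4 in each library, with lines joining the values of a guide. All 4 PDCD10 guides lie higher in both osimertinib libraries than in any T0 or untreated library, and 3 of the 4 MOB4 guides lie lower in all drug libraries than in any untreated library while guide 3 stays between 32.2 and 38.1.

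The direct comparison of the drugs gave PDCD10 an L2FC of -0.25 ± 0.11 in erlotinib over osimertinib (n = 4 guides, adjusted p = 0.0189). It was the 1 member of 9 called lower, where 1.05% of all genes were, and no member was called higher, where 2.52% were (1 member, MOB4, by an unadjusted p from the same draws). All 4 guides had values below 0, from -0.38 to -0.12, and none was called singly. limma did not call it (difference -0.22, 95% interval -0.38 to -0.06, adjusted p = 0.182), and called 0.242% of all genes lower. The call also ended without osimertinib replicate 1 (-0.25), without osimertinib replicate 2 (-0.24) and without erlotinib replicate 2 (-0.19). For the other 8 members the L2FC between the drugs lay between -0.16 (STK25) and 0.13 (MOB4), and SIKE1 became a call, at -0.26, without erlotinib replicate 2. The difference was not particular to PDCD10: KRIT1, LATS2 (-0.24 ± 0.07), PTPA (-0.26 ± 0.10) and PPP2R2A (-0.36 ± 0.15) of the gene lists around PDCD10 were also called lower by the draws in erlotinib over osimertinib. In this comparison limma called 0 genes lower in the list of KRIT1 and 0 in that of LATS2. It called 1 lower in the list of PTPA and PPP2R2A. Since the doses differ, these are values of 2 treatments and not of 2 compounds at matched exposure.

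MOB4, a small adaptor that binds the striatins, gave the opposite pattern. Its knockout cells stood at -0.07 and 0.07 in the T0 libraries and had fallen to -0.64 and -0.54 in the untreated libraries. They stood at -1.26 and -1.06 in erlotinib and at -1.39 and -1.23 in osimertinib. The 4 drug values lay below both untreated values, and the erlotinib and osimertinib values overlapped. MOB4 knockouts fell by 0.61 on the log2 scale between T0 and untreated (SD 0.32, n = 4 guides, adjusted p = 0.000364), a call that draws from all targeting guides did not make. Relative to untreated cells the L2FC was -0.58 ± 0.41 in erlotinib (adjusted p = 0.0022, rank 40 from the bottom) and -0.71 ± 0.54 in osimertinib (adjusted p = 0.00538, rank 26 from the bottom). Relative to T0 it was -1.16 ± 0.70 and -1.29 ± 0.85, which is 0.449 and 0.408 of the T0 abundance relative to the non-targeting guides. Between the drugs the L2FC of 0.13 ± 0.18 did not pass (adjusted p = 0.298). The limma difference was 0.21 (95% interval 0.01 to 0.41, limma adjusted p = 0.351).

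The 4 MOB4 guides differed widely, and guide 3 changed least. It held 34.2 and 37.8 CPM at T0, 36.3 and 38.1 in untreated cells, 34.0 and 36.8 in erlotinib and 32.2 and 37.5 in osimertinib. Guide 4 went from 7.68 and 7.26 CPM at T0 to 4.09 and 5.01 in untreated cells, 1.87 and 3.06 in erlotinib and 1.56 and 2.08 in osimertinib. The L2FC over untreated, relative to the non-targeting guides, ran from -0.88 for guide 4 to -0.07 for guide 3 in erlotinib, and from -1.31 to -0.09 in osimertinib. Singly, 2 of 4 guides were called lower in erlotinib, where 1.05% of all guides were, and 3 of 4 in osimertinib, where 2.32% were. Guide 4 had only 57 to 100 reads in the drug libraries, so its value is the least precise of the 4. The 20 genes nearest to MOB4 had a median L2FC of 0.05 in erlotinib and 0.09 in osimertinib over untreated.

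The striatins, which hold PP2A in the complex, changed less. STRN4 knockouts stood at -0.27 and -0.06 in untreated cells, at -0.27 and -0.30 in erlotinib and at -0.34 and -0.51 in osimertinib. The untreated values overlapped those of erlotinib and lay above those of osimertinib. STRN4 fell in osimertinib over untreated (L2FC -0.28 ± 0.23, n = 4 guides, adjusted p = 0.0197) and did not pass in erlotinib (-0.16 ± 0.08, adjusted p = 0.111). The osimertinib call was lost without untreated replicate 2 (-0.17) and without osimertinib replicate 2 (-0.20), while without untreated replicate 1 the erlotinib value passed (-0.23). The osimertinib call was also lost when draws came from all targeting guides (-0.29, adjusted p = 0.177) or from olfactory receptor guides (-0.28, adjusted p = 0.0749). Only guide 2 of STRN4 was called singly in osimertinib; its reads were 410 and 513 in untreated cells, 393 and 373 in erlotinib and 348 and 259 in osimertinib.

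STRN, the striatin that gave the family its name, was lower than T0 in all 3 endpoint groups and not in drug over untreated. Its knockouts stood at -0.26 and -0.42 in untreated cells, at -0.45 and -0.44 in erlotinib and at -0.34 and -0.31 in osimertinib. STRN fell by 0.35 in untreated cells, 0.43 in erlotinib and 0.33 in osimertinib relative to T0. With all targeting guides as reference, none of these STRN calls was made (adjusted p = 0.569, 0.239 and 0.499). With olfactory receptor guides, those in untreated cells and in osimertinib were lost (adjusted p = 0.116 and 0.136). Over untreated the L2FC was -0.13 ± 0.12 in erlotinib (adjusted p = 0.203) and -0.08 ± 0.14 in osimertinib (adjusted p = 0.501). The limma differences were -0.10 (95% interval -0.24 to 0.04) and 0.01 (-0.14 to 0.15). STRN3, its close paralog, stood at -0.16 and 0.07 in untreated cells, at -0.09 and -0.14 in erlotinib and at -0.26 in both osimertinib libraries. It was called in 1 comparison, osimertinib over T0 (-0.25 ± 0.15, adjusted p = 0.0041), and that call ended without T0 replicate 1 (-0.16). That call was also lost with all targeting guides (adjusted p = 0.756) or olfactory receptor guides (adjusted p = 0.395) as reference. Over untreated STRN3 was at -0.05 ± 0.21 in erlotinib and -0.15 ± 0.10 in osimertinib (adjusted p = 0.592 and 0.22).

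SIKE1, an adaptor that works with SLMAP, was not called in either drug over untreated. Its knockouts stood at -0.03 and -0.24 in untreated cells, -0.35 and -0.06 in erlotinib and -0.06 and 0.09 in osimertinib. The untreated values overlapped those of each drug. Both erlotinib values lay below both osimertinib values, though the nearest were -0.0625 and -0.0611. SIKE1 was called lower in untreated over T0 (-0.13 ± 0.09, adjusted p = 0.0321) and in erlotinib over T0 (-0.20 ± 0.15, adjusted p = 0.00187). Both calls rested on single libraries: the former ended without T0 replicate 2 (-0.11) or untreated replicate 2 (-0.03), and the latter without T0 replicate 1 (-0.16) or erlotinib replicate 1 (-0.06). Over untreated the L2FC was -0.02 ± 0.19 in erlotinib and 0.16 ± 0.20 in osimertinib (adjusted p = 0.856 and 0.202), and the latter passed at 0.26 without untreated replicate 1.

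The GCKIII kinases STK24 and STK25, the partners that PDCD10 brings to the striatins, were called in 0 of the 6 comparisons each. STK24 knockouts stood at -0.06 and -0.02 in untreated cells, 0.15 and 0.00 in erlotinib and 0.09 and 0.06 in osimertinib. The STK24 L2FC over untreated was 0.09 ± 0.13 in erlotinib (adjusted p = 0.366; limma 95% interval -0.05 to 0.22) and 0.13 ± 0.23 in osimertinib (adjusted p = 0.267; -0.02 to 0.26). STK25 knockouts stood at 0.18 and -0.03 in untreated cells, -0.17 and 0.14 in erlotinib and 0.04 and 0.12 in osimertinib, with overlap among all groups. The STK25 L2FC over untreated was 0.01 ± 0.15 in erlotinib (n = 3 guides, adjusted p = 0.945) and 0.17 ± 0.09 in osimertinib (adjusted p = 0.322). The limma differences of STK25 were 0.06 (95% interval -0.12 to 0.23) and 0.20 (0.02 to 0.37). No unadjusted p of the draws was under the threshold for either kinase; by an unadjusted limma p, STK25 in osimertinib over untreated was under the threshold and STK24 was in none of the 6. Without untreated replicate 1, STK25 passed at 0.29 in erlotinib and 0.32 in osimertinib, and without erlotinib replicate 2, STK24 passed at 0.15 in erlotinib over T0. The upper limits of both kinases' intervals lie below the PDCD10 L2FC in each drug, though the differences between genes were not tested. Where kinases of 1 family share a function, single knockouts measure each gene alone.

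CCM2, the scaffold that binds PDCD10 in the cavernous malformation complex, did not share its rise. Its knockouts stood at -0.18 and -0.16 in untreated cells, -0.21 and -0.28 in erlotinib and -0.24 and -0.29 in osimertinib. CCM2 was lower than T0 in untreated cells (-0.19 ± 0.07, adjusted p = 0.00265), in erlotinib (-0.26 ± 0.12) and in osimertinib (-0.25 ± 0.16). The untreated call ended without T0 replicate 1 (-0.13) and was not made by limma (adjusted p = 0.059). With all targeting guides as reference, each of these calls was lost (adjusted p = 0.987, 0.737 and 0.742). Each was also lost with olfactory receptor guides as reference (adjusted p = 0.765, 0.404 and 0.375). Over untreated CCM2 was -0.13 ± 0.06 in erlotinib and -0.13 ± 0.12 in osimertinib (adjusted p = 0.221 and 0.281). The limma intervals, -0.25 to 0.03 and -0.25 to 0.03, do not reach the PDCD10 values.

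**Figure D3:**
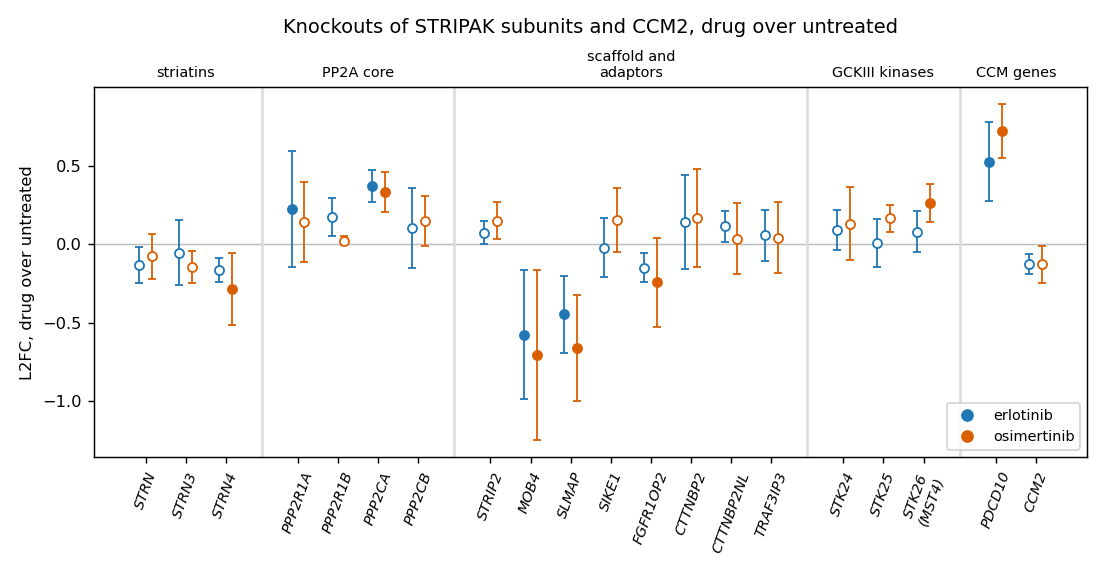
L2FC over untreated of the STRIPAK subunits analysed and CCM2, grouped by role, for erlotinib and osimertinib, with bars for the SD between guides. Filled points were called and open points were not; MOB4 and SLMAP were called lower in both drugs and PDCD10 and PPP2CA higher in both.

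Another 11 subunits, listed from the known composition of the complex, are given here by the same test. Over untreated, 1 of 11 was lower and 2 were higher in erlotinib, with a median L2FC of 0.10, and 2 were lower and 2 higher in osimertinib, with a median of 0.14, beside 4.7% of all genes lower and 6.37% higher in erlotinib and 4.98% and 4.92% in osimertinib. SLMAP, the tail-anchored adaptor that recruits MST1 and MST2, fell like MOB4: its knockouts stood at -0.36 and -0.46 in untreated cells, -0.81 and -0.81 in erlotinib and -0.98 and -1.03 in osimertinib. The SLMAP L2FC over untreated was -0.45 ± 0.25 in erlotinib (adjusted p = 0.0022) and -0.66 ± 0.34 in osimertinib (adjusted p = 0.00538), and both calls were made when any 1 library was left out. FGFR1OP2, the paralog of SIKE1, fell in osimertinib (-0.24 ± 0.28, adjusted p = 0.0343) but was not called when any 1 of the 4 libraries was left out, and was at -0.15 ± 0.09 in erlotinib (adjusted p = 0.143).

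The GCKIII kinase STK26, listed under its older symbol MST4, rose in osimertinib over untreated (0.26 ± 0.12, adjusted p = 0.0214), and was at 0.08 ± 0.13 in erlotinib (adjusted p = 0.421). The osimertinib call was lost when any 1 of the 4 libraries was left out, with values from 0.17 to 0.28. PPP2CA, the main catalytic subunit of PP2A, had the lowest L2FC of the 11 in untreated over T0 (-1.01 ± 0.42, n = 3 guides). Over untreated it was higher in erlotinib (0.37 ± 0.10, adjusted p = 0.0022) and in osimertinib (0.33 ± 0.13, adjusted p = 0.0305), and lower than T0 in both (-0.58 and -0.60). The PP2A scaffold PPP2R1A was at -0.94 ± 0.82 in untreated over T0 and at 0.23 ± 0.37 in erlotinib over untreated (adjusted p = 0.0218), and did not pass in osimertinib (0.14 ± 0.25). Without untreated replicate 1 or erlotinib replicate 2, PPP2CA lost its erlotinib call (0.20 and 0.26), and it lost the osimertinib call when any 1 of the 4 libraries was left out. PPP2R1A lost its erlotinib call without untreated replicate 2 (0.06) or erlotinib replicate 1 (0.18), with a mean count of at least 200 (0.10, adjusted p = 0.417) and by limma (adjusted p = 0.18), and passed in osimertinib without untreated replicate 1 (0.24). Knockouts of the ribosomal protein genes, which also fall in untreated cells, had a median L2FC of 0.15 in erlotinib and 0.02 in osimertinib over untreated, with 16 and 4 of 48 higher; the part of such a shift in the PP2A values was not tested. STRIP2, CTTNBP2, CTTNBP2NL, TRAF3IP3, PPP2R1B and PPP2CB, which include the less used paralogs of the complex, were between 0.02 and 0.17 in both drugs over untreated and none was called, though CTTNBP2NL passed in erlotinib without untreated replicate 1 (0.23).

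**Figure D4:**
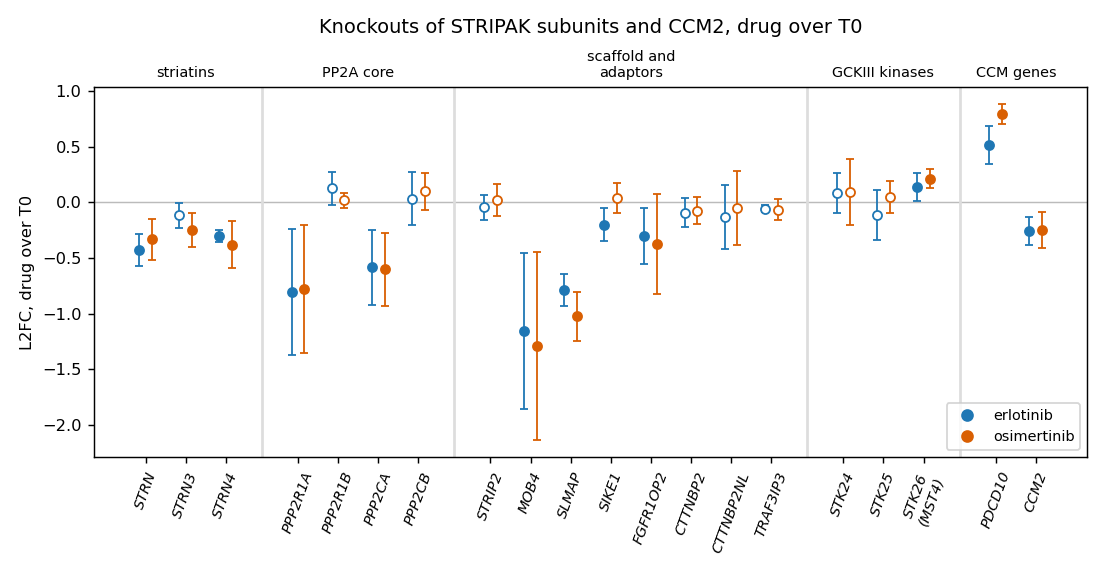
The same genes as L2FC over T0, with bars for the SD between guides and filled points for calls. PDCD10 and STK26 are the genes called higher in both drugs, and MOB4, SLMAP, PPP2CA and PPP2R1A lie lowest, between -1.29 and -0.58.

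Against T0, SLMAP and STK26 lay on opposite sides of the non-targeting guides in drug-treated cells. SLMAP was at -0.79 ± 0.15 in erlotinib and -1.02 ± 0.22 in osimertinib, both called lower. STK26 was at 0.14 ± 0.12 in erlotinib (adjusted p = 0.0485) and 0.21 ± 0.08 in osimertinib (adjusted p = 0.0103). The STK26 call in erlotinib was lost when any 1 of the 4 libraries was left out (0.02 to 0.13), and that in osimertinib without osimertinib replicate 2 (0.18). In the direct comparison of the drugs, 0 of the 11 were called by the draws (1 lower and 2 higher by an unadjusted p) and 0 by limma.

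Genes of the pathways around PDCD10 were counted from lists drawn up with earlier results known. Of the CCM complex and its MEKK3 branch, the signalling route that PDCD10 and CCM2 restrain in endothelium, 0 of 12 genes tested were called in either drug over untreated. Of all genes, 4.7% were lower and 6.37% higher in erlotinib, and 4.98% and 4.92% in osimertinib. At such shares, few calls would be usual among 12 genes. By an unadjusted p from the draws, 2 were lower in erlotinib, and 2 were lower and 1 higher in osimertinib. limma called 0 in erlotinib, where it called 2.25% of all genes lower and 4.88% higher. In osimertinib it called 1 lower, against 4.83% lower and 5.31% higher. KRIT1, the third cavernous malformation gene, was at -0.09 ± 0.15 in erlotinib and 0.16 ± 0.05 in osimertinib over untreated (adjusted p = 0.374 and 0.199), and was called lower in erlotinib over osimertinib (-0.23 ± 0.14, adjusted p = 0.0381). Of 18 Hippo kinases and adaptors, 1 was lower and 4 higher in erlotinib, and 1 was lower and 6 higher in osimertinib, with medians of 0.04 and 0.11, where the shares of all genes were 4.7% lower and 6.37% higher, and 4.98% lower and 4.92% higher, and the medians 0.00 and 0.01. NF2, the upstream activator of the Hippo kinases, was at 1.03 ± 0.17 and 1.24 ± 0.18, and LATS2, which phosphorylates YAP, at 0.40 ± 0.15 and 0.64 ± 0.21 in erlotinib and osimertinib. TAOK2, which activates MST kinases, was at 0.45 ± 0.39 and 0.61 ± 0.46 (n = 3 guides). MAP4K4, an activator of LATS kinases, was at 0.26 ± 0.04 and 0.45 ± 0.17 (n = 3 guides), while its relative MAP4K2 fell to -0.23 ± 0.18 and -0.30 ± 0.13. MOB1A, the LATS coactivator, was called in osimertinib (0.29 ± 0.10) and not in erlotinib (0.19 ± 0.04, adjusted p = 0.0544), where it passed without erlotinib replicate 1 (0.24). The calls of NF2, LATS2 and TAOK2 were made when any 1 library was left out, but in erlotinib those of LATS2 and TAOK2 were not made with all targeting guides as reference (adjusted p = 0.066 and 0.0757), and TAOK2 was at 0.17 (adjusted p = 0.175) with a mean count of at least 200. Those of MAP4K4 were lost without untreated replicate 1 (0.23) or erlotinib replicate 2 (0.19) in erlotinib and without osimertinib replicate 2 (0.33) in osimertinib. Those of MAP4K2 were lost without untreated replicate 1 (-0.15 and -0.21 in erlotinib and osimertinib), erlotinib replicate 2 (-0.13) or osimertinib replicate 1 (-0.24), and that of MOB1A without untreated replicate 2 (0.32) or osimertinib replicate 2 (0.25). By limma, the MAP4K2 call in erlotinib was also lost (-0.20, adjusted p = 0.103).

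Among 11 other PP2A regulatory subunits tested, 1 was lower and 2 were higher in each drug over untreated, against the same shares of all genes. PTPA, a PP2A activator listed as PPP2R4, was at 0.48 ± 0.18 and 0.69 ± 0.22, and PPP2R2A, the B55 alpha subunit, at 0.20 ± 0.06 and 0.52 ± 0.15 in erlotinib and osimertinib. The lower ones were PPP2R5E in erlotinib (-0.20 ± 0.10) and PPP2R3C in osimertinib (-0.44 ± 0.27). The PPP2R2A value in erlotinib lost its call without untreated replicate 1 (0.14), erlotinib replicate 1 (0.15) or erlotinib replicate 2 (0.23), and PPP2R5E lost its call without untreated replicate 2 (-0.18) or erlotinib replicate 1 (-0.11). limma called neither PPP2R2A nor PPP2R5E in erlotinib (adjusted p = 0.171 and 0.233). Among 7 GCKIII partners and NDR kinases, 2 were higher in erlotinib and 0 were called in osimertinib, where 2 were higher by an unadjusted p from the draws and limma also called 0. The 2 were CAB39, the MO25 scaffold of GCKIII kinases (0.34 ± 0.19, lost at 0.17 without erlotinib replicate 1), and MOB2, an NDR kinase binder (0.21 ± 0.20, lost without untreated replicate 2, at 0.22, or erlotinib replicate 2, at 0.21, and with a mean count of at least 200, at 0.11). limma called 1 gene of this list higher in erlotinib and did not call CAB39 (0.28, adjusted p = 0.0542).

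The genes whose knockouts were most like PDCD10 were found by the Euclidean distance between their levels in the 6 endpoint libraries, over 17273 genes with at least 3 guides. The 5 closest were KCTD5 (distance 0.338), MAP4K4 (0.395), CREBBP (0.408), TSC2 (0.467) and ZNF689 (0.47), where the median distance of all genes to PDCD10 was 1.65. KCTD5 knockouts stood at -0.08 and -0.09 in untreated cells, 0.47 and 0.46 in erlotinib and 0.63 and 0.54 in osimertinib. PDCD10 knockouts stood at 0.58 and 0.46 in erlotinib and at 0.80 and 0.71 in osimertinib. KCTD5 was picked for its small distance over these values, so their likeness follows from the choice. No other member of the complex was among the 5. The distance describes likeness of these 6 values, which share their T0 reference, and nothing of function.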

How the data were processed

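The authors deposited raw counts of reads per guide for 8 libraries, trimmed and mapped to the TKOv3 guides with 1 mismatch allowed. The methods name Bowtie2 and the submitters' processing notes Bowtie 1.3.1, and which was used is not settled here. The table held 71090 guides, 142 of them non-targeting. A spreadsheet had turned 50 gene names into currency, and 1 name (4 guides) could not be restored and was left out. Guides in the lowest 5% by mean scaled reads (under 46 reads) were removed, leaving 67531. L2FC per guide came from edgeR 4.0.16 (R 4.3.3) quasi-likelihood fits with TMM over all 8 libraries and no covariate, where the methods used DESeq2 (1.42.0, an alternative here). Gene values were medians over at least 2 guides relative to non-targeting guides. The two-sided empirical p came from 10000 draws out of the 138 non-targeting guides kept. Each draw took as many guides as the gene had, and Benjamini-Hochberg adjustment ran over 17761 genes. Gene by library values (log2 CPM, prior count 1) were tested with limma 3.58.1, with 4 residual degrees of freedom among samples before moderation. The scripts recovered known changes on simulated data, in which all guides of a changed gene moved alike and only in erlotinib. That setting lacks the differences between guides of a gene and the general shift of targeting guides seen here. The members and all gene lists were chosen with earlier results of these data known. Named genes were the 9 members, 11 other STRIPAK subunits, called genes of the other lists in drug over untreated (at most 6 a list, by size) and the 5 genes most like PDCD10. Alternatives were DESeq2, other filters, the mean over guides, other reference guides, limma, neighbouring genes, a replicate block and leaving out each library. Reads came from PCR without molecular identifiers, so they are not independent molecules and precision by depth covers counting error only. The 5 µM osimertinib arm and 1 further gene of the complex were not analysed here, and guide sequences were not used.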

Additional observations from a re-analysis of the deposited data

Results flagged for a closer look

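PDCD10 was the member in which the effects of the drugs differed in a direct test. Its L2FC in erlotinib over osimertinib was -0.25 (adjusted p = 0.0189 from draws of non-targeting guides), with all 4 guides below 0 and both erlotinib libraries below both osimertinib libraries. The adjusted p ranged from 0.0096 to 0.267 over the alternatives and was above the threshold in limma, with other reference guides and without 3 of the 4 libraries. The drugs were given at different doses, 10 µM and 0.1 µM.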

How the results depend on the processing

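Of the members' values under the alternatives, 630 kept direction and side of the threshold, 43 lost a call, 7 gained one, 16 values without a test moved by more than the SD between guides, and 6 turned sign. PDCD10 and MOB4 kept their calls in both drugs over untreated and over T0 under every alternative with a test. In untreated over T0, the 5 called members became 0 with all targeting guides as reference, 1 with olfactory receptor guides and 2 with limma (1, 2 and 3 by an unadjusted p), and 3 to 5 when a library was left out, the 3 without T0 replicate 2. With all targeting and olfactory receptor guides as reference, the 6 called members became 2 and 3 in erlotinib over T0 and 2 and 2 in osimertinib over T0, and the 1 in erlotinib over osimertinib became 0 and 0. Lower calls over all genes fell too, from 9112 to 526 and 1590 in erlotinib over T0 and from 7658 to 644 and 2127 in osimertinib over T0. With the same 2 references, the 3 called members in osimertinib over untreated became 2 and 2, without STRN4. Lower calls over all genes there fell from 884 to 120 and 383. The 1 called member in erlotinib over osimertinib also became 0 with limma, where 3 members had an unadjusted p under the threshold, and 0 to 1 when a library was left out. Leaving out a library gave 2 to 4 called members in erlotinib over untreated, 2 to 5 in osimertinib over untreated (4 and 5 without untreated replicate 1), 5 to 7 in erlotinib over T0 and 5 to 6 in osimertinib over T0. The single guides called in untreated over T0, 3 with edgeR, became 0 with DESeq2 and 1 with a mean count of at least 200. Leaving out a library gave 0 to 1 of them, 2 to 4 in erlotinib over untreated, 5 to 9 in erlotinib over T0 and 0 to 1 in erlotinib over osimertinib. Values turned sign in STRN4 in untreated over T0 (0.0351 with all targeting guides and 0.0852 relative to neighbouring genes), SIKE1 in untreated over T0 (0.0453 and 0.206) and relative to neighbouring genes SIKE1 in erlotinib over T0 (0.0227) and CCM2 in osimertinib over T0 (0.0457). Of the values of other named genes, 977 kept direction and side, 116 lost a call, 9 gained one and 2 turned sign. STRIP2 and TRAF3IP3 turned sign in untreated over T0 with all targeting guides (0.0417 and 0.0458). The cause was not tested. Replicate numbers did not pair the samples, since the correlation of deviations between same-numbered libraries lay between -0.00304 and 0.0101 for every pair of groups; with a replicate block the called members were 5, 2 and 3 in untreated over T0, erlotinib over untreated and osimertinib over untreated, as without it. The block ended the call of STK26 in erlotinib over T0 (adjusted p = 0.0521) and made one of MOB1A in erlotinib over untreated (adjusted p = 0.0456). Precision is limited by 2 libraries a group with 4 residual degrees of freedom, and for single guides by few reads, such as those of MOB4 guide 4 in the drug libraries.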
